A study of Mus musculus with 15 samples.

Results

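The Nodal pathway and its Lefty feedback inhibitors were followed in mouse embryonic stem cells through 9 genes, taken by symbol as the most abundant row of each in a table of 37310 genes. They are the ligands Nodal (ENSMUSG00000037171.6, chromosome 10) and Gdf3 (ENSMUSG00000030117.4, chromosome 6), the co-receptor gene Tdgf1 (ENSMUSG00000032494.8, chromosome 9), and the receptor genes Acvr1b (ENSMUSG00000000532.8, chromosome 15) and Acvr2b (ENSMUSG00000061393.6, chromosome 9). The others are the secreted inhibitors Lefty1 (ENSMUSG00000038793.8) and Lefty2 (ENSMUSG00000066652.5), both on chromosome 1, the transcription factor gene Foxh1 (ENSMUSG00000033837.4, chromosome 15) and the intracellular inhibitor Smad7 (ENSMUSG00000025880.5, chromosome 18). The 9 were chosen by their counts in each knockout against its own wild type, so those values are given as a description, without a test.

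Nodal is a secreted signal of the TGF-beta family that acts through activin receptors together with the Cripto co-receptor, the product of Tdgf1. The receptors activate SMAD2 and SMAD3, which enter the nucleus with SMAD4 and act on target genes partly through FOXH1. Lefty1 and Lefty2 are themselves targets of the pathway, and their secreted products block Nodal and its co-receptor, which closes a negative feedback loop that is active in embryonic stem cells.

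RNA was sequenced from the J1 line of male mouse embryonic stem cells, cultured with fetal calf serum and the self-renewal cytokine LIF, in 15 libraries that form 5 groups of 3. One experiment held a Taf5l knockout (Taf5l-KO), a Taf6l knockout (Taf6l-KO) and their J1 wild type (WT-Taf), and the other held a Myc knockout (cMyc-KO) and its own J1 wild type (WT-Myc). TAF5L and TAF6L belong to SAGA, a complex that acetylates histones at active genes, and MYC drives the transcription of genes for cell growth. The labels name no agent or transgene and leave unsaid whether the 3 libraries of a group are separate cultures or clones. The descriptions of the 3 cMyc-KO libraries share a code, absent from WT-Myc, that the labels do not explain. Should it name a clone, clone and knockout cannot be told apart there. A p-value here reflects library-to-library spread, which could be technical.

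Total counts per library ran from 14935631 to 21767884 in the Taf experiment and from 17922864 to 27650813 in that of Myc. RNA of each targeted gene was reduced in its knockout but not absent: Taf5l was at 42.5 CPM in Taf5l-KO against 86.0 in WT-Taf, Taf6l at 6.59 against 26.1, and Myc at 29.2 in cMyc-KO against 66.8 in WT-Myc. Myc RNA was also lower in the Taf knockouts, at 42.7 CPM in Taf5l-KO and 39.0 in Taf6l-KO against 69.2 in WT-Taf. Taf6l was at 20.5 CPM in Taf5l-KO. CPM here is the count scaled to the TMM-adjusted library size. Small non-coding RNAs made up 2.06% ± 0.157 (SD, n = 3) of counts in WT-Taf and 0.0401% ± 0.00499 in WT-Myc, although the labels give all libraries the same ribosomal RNA depletion, so the experiments were not read as a single series. Replicate 3 of cMyc-KO stood apart from its group, at 36.4 and 26.3 times the chi-square that sampling alone gives on average against the other 2 libraries, which differed from each other by 5.07 times. The pluripotency markers Pou5f1, Nanog and Sox2 were at 916, 493 and 390 CPM in WT-Taf and at 1399, 759 and 568 CPM in WT-Myc.

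The Lefty genes are close copies, and their sequences bear on how reads can be assigned to each. In the GENCODE M21 transcripts (GRCm38) both coding sequences are 1107 bases long and align without gaps, with 1017 identical positions and 90 substitutions (91.9% identity). The stretch where they differ most, coding bases 35 to 124, holds 27 differences in 90 bases, shown here in capitals, 5′ to 3′.

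Lefty1: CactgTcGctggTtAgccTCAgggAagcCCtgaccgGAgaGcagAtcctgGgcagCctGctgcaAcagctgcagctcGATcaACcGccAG
Lefty2: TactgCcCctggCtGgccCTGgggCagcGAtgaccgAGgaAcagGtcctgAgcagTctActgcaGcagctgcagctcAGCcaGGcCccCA

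Over the longest transcripts, 398 words of 31 bases occur in both, which is 25.0% of those of Lefty1 and 16.3% of those of Lefty2. The split of counts between the Lefty genes is therefore less certain than their sum, and both are given.

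The ligands were nearly level in the Taf knockouts, while Nodal was much lower in the Myc knockout. Nodal was at 20.4, 21.3 and 23.1 CPM in the 3 WT-Taf libraries, at 19.4, 19.6 and 19.4 CPM in Taf5l-KO, and at 18.2, 19.97 and 19.1 CPM in Taf6l-KO. Every Taf knockout library lay below every WT-Taf library, but the gap was small against the level: the log2 fold change was -0.15 ± 0.062 (SE) in Taf5l-KO and -0.17 ± 0.061 in Taf6l-KO. In the Myc experiment Nodal was at 124, 126 and 129 CPM in WT-Myc and at 53.7, 53.9 and 47.8 CPM in cMyc-KO. The groups were far apart, with means of 127 ± 2.62 and 51.8 ± 3.48 CPM (SD, n = 3), a log2 fold change of -1.29 ± 0.063, or -1.22 without cMyc-KO replicate 3.

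Gdf3, a related ligand of the same receptors, was at 92.7, 89.6 and 87.2 CPM in WT-Taf, 82.0, 82.8 and 79.6 CPM in Taf5l-KO, and 82.5, 85.2 and 84.2 CPM in Taf6l-KO. All 6 Taf knockout libraries lay below the 3 wild-type libraries, with log2 fold changes of -0.14 ± 0.035 and -0.10 ± 0.035. Scaled by library totals alone, Gdf3 was at -0.03 in Taf6l-KO, so that value depends on the scaling. In WT-Myc it was at 133, 133 and 145 CPM and in cMyc-KO at 112, 108 and 106 CPM. These groups did not overlap either, at a log2 fold change of -0.34 ± 0.056, or -0.30 without cMyc-KO replicate 3.

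Of the 9, the co-receptor gene Tdgf1 and the receptor gene Acvr1b moved little. Tdgf1, which encodes Cripto, was by count the most abundant of the 9 and lay between 450 and 482 CPM in all 9 libraries of the Taf experiment and between 663 and 746 CPM in all 6 of the Myc experiment. Its log2 fold change was -0.04 ± 0.030 in Taf5l-KO, -0.03 ± 0.030 in Taf6l-KO and 0.03 ± 0.058 in cMyc-KO, and in each comparison the groups overlapped. Acvr1b, the ALK4 type I receptor, lay between 26.7 and 33.4 CPM in the Taf experiment and between 28.2 and 32.2 CPM in the Myc experiment. Its log2 fold changes were -0.04 ± 0.072, -0.11 ± 0.072 and 0.12 ± 0.059, and only in cMyc-KO did its groups not overlap.

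Acvr2b, a type II receptor, was at 16.3, 17.4 and 16.9 CPM in WT-Taf, 25.2, 19.9 and 22.1 CPM in Taf5l-KO, and 19.3, 20.4 and 19.6 CPM in Taf6l-KO. Each Taf knockout library was above each wild-type library, with log2 fold changes of 0.40 ± 0.077 and 0.23 ± 0.077. In the Myc experiment its groups overlapped, at 14.2, 16.8 and 17.7 CPM in WT-Myc and 19.1, 18.4 and 13.9 CPM in cMyc-KO (log2 fold change 0.07 ± 0.138). The lowest of these libraries was cMyc-KO replicate 3, and without it the value was 0.22.

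The Lefty genes stood out in size. Lefty1 was at 2.43, 1.79 and 1.90 CPM in WT-Taf, from 28 to 45 reads per library, against 11.3, 9.94 and 9.76 CPM in Taf5l-KO and 9.91, 10.8 and 11.2 CPM in Taf6l-KO. The lowest knockout library was far above the highest wild-type library, and the log2 fold changes were 2.34 ± 0.130 (5.05-fold) in Taf5l-KO and 2.38 ± 0.128 (5.19-fold) in Taf6l-KO. In the Myc experiment the order was the other way round, with 8.68, 8.28 and 9.85 CPM in WT-Myc and 5.25, 5.19 and 3.21 CPM in cMyc-KO. The log2 fold change there was -0.98 ± 0.188, and -0.76 without cMyc-KO replicate 3, its lowest library.

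Lefty2 was at 4.80, 3.68 and 3.11 CPM in WT-Taf, from 46 to 89 reads per library, against 18.2, 12.7 and 14.2 CPM in Taf5l-KO and 21.9, 25.9 and 23.2 CPM in Taf6l-KO. Again no knockout library reached down to the wild-type range, and all 3 Taf6l-KO libraries were above all 3 Taf5l-KO libraries. The log2 fold changes against WT-Taf were 1.94 ± 0.157 (3.82-fold) in Taf5l-KO and 2.60 ± 0.147 (6.04-fold) in Taf6l-KO. In WT-Myc it was at 15.5, 14.4 and 13.6 CPM and in cMyc-KO at 10.8, 9.63 and 10.7 CPM. These groups did not overlap, with a log2 fold change of -0.48 ± 0.089. In bulk libraries such as these, a change in the number of cells that express a gene and a change in RNA per cell cannot be told apart.

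**Figure D1:**
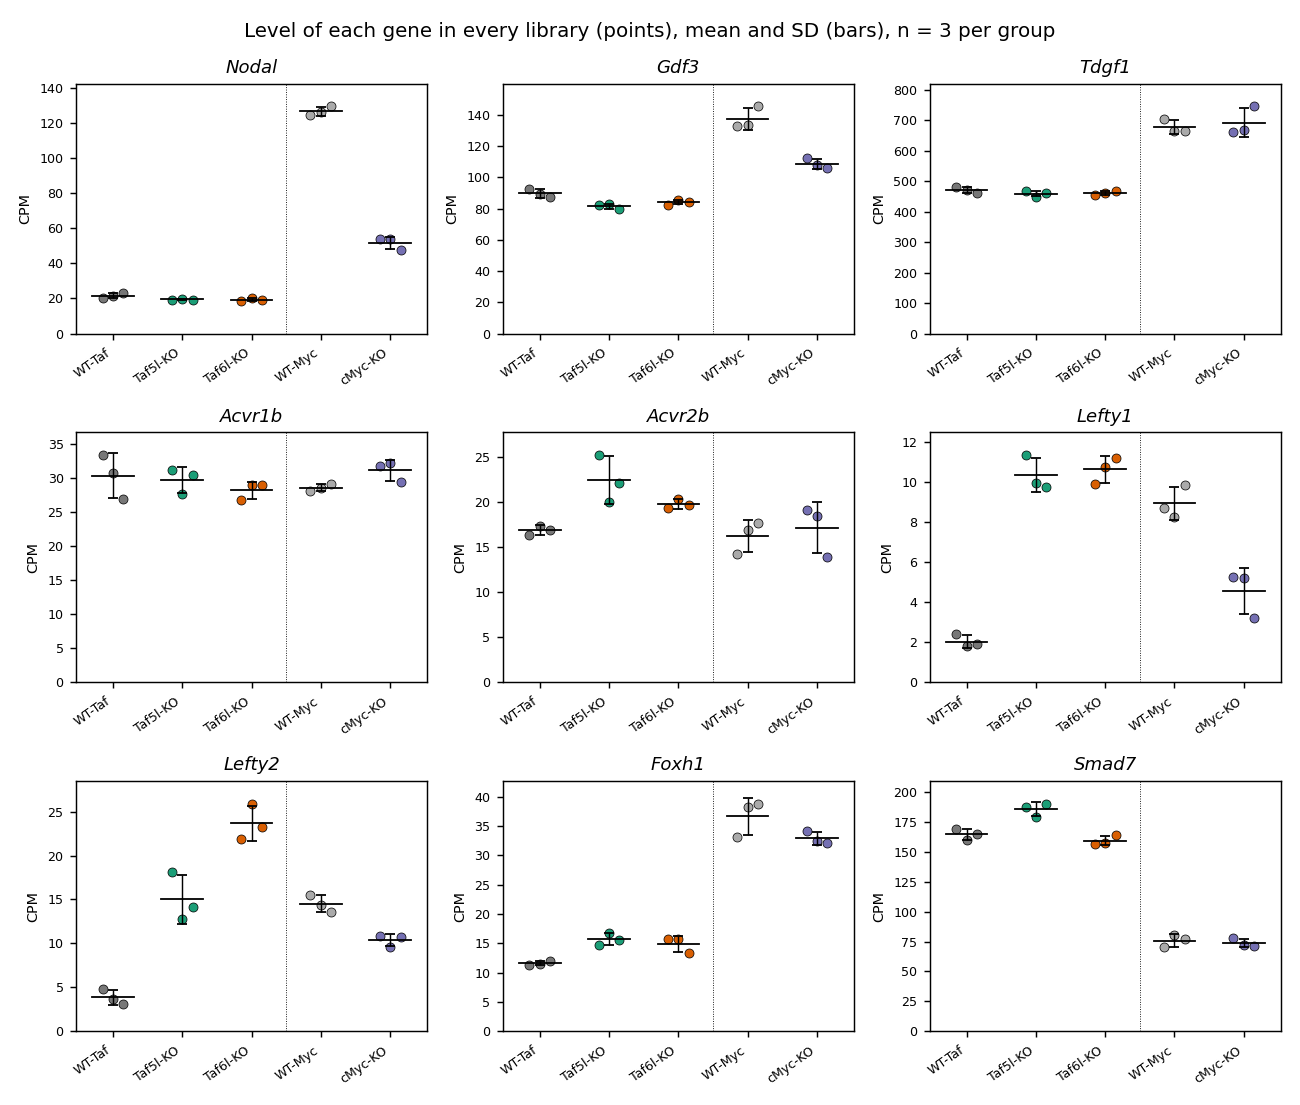
Level of each of the 9 genes (CPM, vertical axis from 0) in every library, one panel per gene; points are libraries, bars the mean and SD of 3, and the dotted line parts the Taf and Myc experiments. Lefty1 and Lefty2 are at 1.79 to 4.80 CPM in WT-Taf and at 9.76 to 25.9 CPM in the Taf knockouts, and Nodal is at 124 to 129 CPM in WT-Myc and 47.8 to 53.9 CPM in cMyc-KO.

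Adding the counts of both Lefty genes takes out the uncertainty of the split. The sum was 5.90 ± 1.17 CPM in WT-Taf, 25.4 ± 3.63 CPM in Taf5l-KO and 34.3 ± 2.39 CPM in Taf6l-KO (SD, n = 3), with log2 fold changes of 2.09 ± 0.127 and 2.53 ± 0.121. It was 23.4 ± 0.786 CPM in WT-Myc and 14.94 ± 1.09 CPM in cMyc-KO, a log2 fold change of -0.65 ± 0.077. Against its own wild type, Lefty RNA as a pair was thus higher in both Taf knockouts and lower in the Myc knockout. The same held for each gene alone. These directions hold within an experiment only: the sum in WT-Myc was near that in Taf5l-KO, and the sum in cMyc-KO was above that in WT-Taf.

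The amount of Lefty relative to Nodal differed strongly between groups. Lefty counts per Nodal count were 0.354, 0.257 and 0.216 in WT-Taf, 1.52, 1.16 and 1.24 in Taf5l-KO, and 1.75, 1.83 and 1.80 in Taf6l-KO. In wild type there were fewer Lefty reads than Nodal reads in each library, and in both Taf knockouts there were more. In WT-Myc the ratio was 0.195, 0.179 and 0.181, and in cMyc-KO it was 0.299, 0.275 and 0.291. It was higher in every cMyc-KO library although the Lefty sum itself was lower there, since Nodal was lower by a larger factor. The ratio is of reads and is not corrected for transcript length, so it compares groups and not the molecules of the inhibitors with those of the ligand.

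The share of Lefty1 in the pair was 34.7% ± 2.74 in WT-Taf, 41.0% ± 2.70 in Taf5l-KO and 31.01% ± 1.59 in Taf6l-KO. The 3 Taf5l-KO libraries (38.4%, 43.8% and 40.7%) all lay above the 3 Taf6l-KO libraries (31.1%, 29.4% and 32.5%), and the WT-Taf libraries lay between 32.7% and 37.8%. In the Myc experiment the share was 38.1% ± 3.38 in WT-Myc and 30.3% ± 6.31 in cMyc-KO. The wide spread there came from cMyc-KO replicate 3, at 23.1% (exact Clopper-Pearson 95% interval 19.0% to 27.66%, counting error only), against 32.7% and 35.01% in the other 2 libraries.

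**Figure D2:**
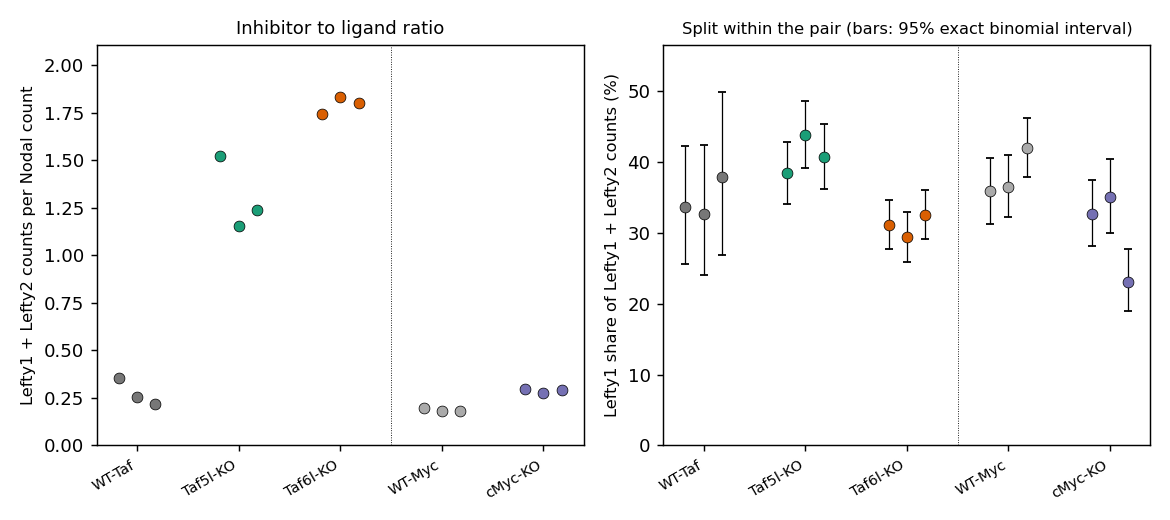
Left, Lefty1 plus Lefty2 counts per Nodal count in each library; right, Lefty1 as a percentage of Lefty1 plus Lefty2 counts with its exact 95% binomial interval; points are libraries, coloured by group. The ratio lies between 0.216 and 0.354 in WT-Taf and between 1.16 and 1.83 in the Taf knockouts, while the share of Lefty1 stays between 23.1% and 43.8% in all 15 libraries.

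Foxh1, the DNA-binding partner of the activated SMADs, was at 11.4, 11.4 and 11.98 CPM in WT-Taf, 14.7, 16.8 and 15.6 CPM in Taf5l-KO, and 15.8, 15.7 and 13.4 CPM in Taf6l-KO. All 6 knockout libraries were higher than wild type, with log2 fold changes of 0.44 ± 0.083 and 0.37 ± 0.083. In the Myc experiment it was at 33.1, 38.2 and 38.8 CPM in WT-Myc and 34.2, 32.5 and 32.2 CPM in cMyc-KO. Those ranges overlapped, and the log2 fold change was -0.16 ± 0.073.

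Smad7, which blocks the activated receptors, was at 169, 160 and 165 CPM in WT-Taf, 188, 179 and 190 CPM in Taf5l-KO, and 157, 157 and 164 CPM in Taf6l-KO. Only Taf5l-KO lay wholly apart from wild type, with a log2 fold change of 0.17 ± 0.035, while Taf6l-KO overlapped it (-0.05 ± 0.036). In WT-Myc it was at 70.0, 80.4 and 76.8 CPM and in cMyc-KO at 77.6, 72.3 and 71.1 CPM, with overlapping ranges and a log2 fold change of -0.04 ± 0.068.

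All 9 genes passed the filter on low counts in both experiments. In Taf5l-KO 5 of them were called higher and 1 lower, where 33.2% of the 15743 genes tested were called, 17.4% higher and 15.9% lower. In Taf6l-KO 4 were called higher and 2 lower (37.2% of all genes called, 19.1% higher and 18.2% lower), and in cMyc-KO 4 were called lower and none higher (34.8% of 14563 genes called, 15.2% higher and 19.5% lower). The groups did not overlap for 5 higher and 2 lower in Taf5l-KO (44.7% of all genes, 22.7% and 22%), for 4 and 2 in Taf6l-KO (49% of all genes, 25.4% and 23.5%), and for 1 and 4 in cMyc-KO (49.6% of all genes, 22.9% and 26.7%). Nothing is read from these counts, since the comparisons chose the genes. The median log2 fold change of the 9 was 0.17 in Taf5l-KO, -0.03 in Taf6l-KO and -0.16 in cMyc-KO, beside medians of 0.00 (0.000539), 0.02 and 0.00 (-0.00185) over all genes tested. The Taf5l-KO and Taf6l-KO comparisons share the WT-Taf libraries, so their values are not independent of each other.

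**Figure D3:**
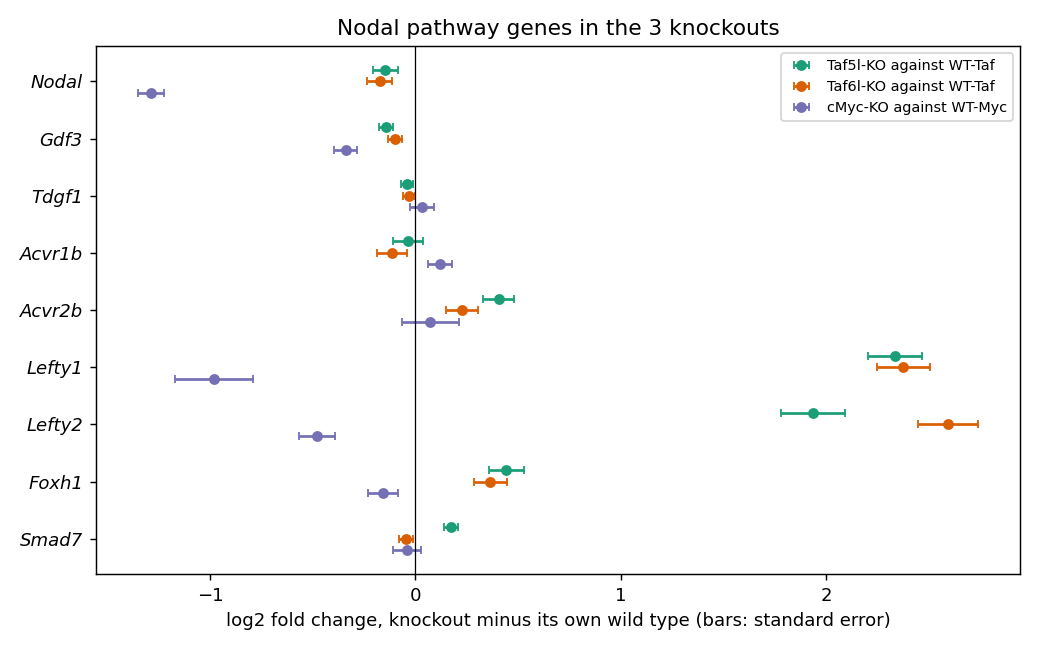
Log2 fold change of each gene, knockout minus its own wild type (horizontal axis), with its standard error, for the 3 knockouts in different colours. Lefty1 and Lefty2 are at 1.94 to 2.60 in the Taf knockouts and at -0.98 and -0.48 in cMyc-KO, Nodal is at -1.29 in cMyc-KO, and the other values lie between -0.34 and 0.44.

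The Taf knockouts were then compared directly, a comparison that did not enter the choice of genes but uses the same libraries. Lefty2 was higher in Taf6l-KO than in Taf5l-KO in all 3 libraries against all 3, by 0.66 ± 0.116 on the log2 scale (95% interval 0.412 to 0.908; adjusted p = 0.00128, edgeR's quasi-likelihood test with Benjamini-Hochberg adjustment). With limma-trend on log2(FPKM + 1) the difference was 0.68 but did not pass the test (adjusted p = 0.11). The sum of both Lefty genes differed by 0.44 ± 0.094 (adjusted p = 0.0049 in edgeR). Lefty1 differed by 0.04 ± 0.096, with an interval from -0.164 to 0.247 (edgeR adjusted p = 0.818), so the gap in Lefty2 is not matched by one of that size in Lefty1.

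Smad7 was lower in every Taf6l-KO library than in every Taf5l-KO library, by -0.22 ± 0.035 (95% interval -0.294 to -0.143; edgeR adjusted p = 0.000692). Acvr2b differed by -0.18 ± 0.074, which did not pass the test (edgeR adjusted p = 0.113) but did without Taf5l-KO replicate 2 (-0.26, adjusted p = 0.0274). The remaining 5 genes did not pass: the 95% intervals of the difference ran from -0.159 to 0.103 for Nodal, from -0.0313 to 0.117 for Gdf3, from -0.0545 to 0.0728 for Tdgf1, from -0.23 to 0.0768 for Acvr1b and from -0.246 to 0.0899 for Foxh1. Gdf3 passed when counts were scaled by library totals alone (0.14, edgeR adjusted p = 0.0213). Of the 9 genes, 1 was higher and 1 lower in Taf6l-KO, against 18.7% of all 15743 genes called in either direction, 8.55% higher and 10.1% lower, so the share of 2 in 9 is near the background. Groups that did not overlap made up 34.7% of all genes there, 17.2% higher and 17.5% lower.

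The wild types themselves differed between the experiments, which set the level from which each knockout departed. In FPKM, the authors' value per length and depth, Nodal was at 12.1 in WT-Taf and 65.1 in WT-Myc, a ratio of 5.36. Lefty1 was at 3.14 and 13.4 FPKM (ratio 4.25), Lefty2 at 3.75 and 13.3 FPKM (3.55), and Foxh1 at 11.4 and 32.9 FPKM (2.89). Smad7 went the other way, at 263 FPKM in WT-Taf and 107 FPKM in WT-Myc (0.407). Gdf3 and Tdgf1 were at ratios of 1.4 and 1.31, Acvr1b at 0.862 and Acvr2b at 0.87, with overlapping libraries for Acvr2b alone. Experiment, library composition and wild-type stock cannot be told apart here, and no test was made.

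Ordered by FPKM within WT-Taf, Tdgf1 (293 ± 5.40, SD, n = 3) stood above Smad7 (263 ± 8.15), Gdf3 (49.7 ± 1.48) and Acvr2b (25.9 ± 1.02), with no overlap between these neighbours. Nodal (12.1), Foxh1 (11.4) and Acvr1b (10.4) overlapped with their neighbours in the order, and so did Lefty2 (3.75) and Lefty1 (3.14) at its end. In Taf5l-KO the Lefty genes (16.5 and 15.0 FPKM) and Foxh1 (15.4 FPKM) overlapped with each other, above Nodal (10.9) and Acvr1b (10.2), and Smad7 (294) overlapped with Tdgf1 (284) at the top. In Taf6l-KO Lefty2 (24.3 FPKM) and Lefty1 (16.1 FPKM) did not overlap with their neighbours, above Foxh1, Nodal and Acvr1b. Lefty1 and Foxh1 nearly touched, with a lowest Lefty1 library of 15.354 FPKM and a highest Foxh1 library of 15.332 FPKM. By CPM, which is not per length, the order in Taf5l-KO was another: Acvr1b was in place 4, Nodal 6, Lefty2 8 and Lefty1 9. In Taf6l-KO it also changed by CPM, with Acvr1b in place 4, Lefty2 5, Nodal 7, Foxh1 8 and Lefty1 9.

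In WT-Myc Nodal (65.1 FPKM) took the fourth place behind Tdgf1 (384), Smad7 (107) and Gdf3 (69.5), and the Lefty genes (13.4 and 13.3 FPKM) overlapped. In cMyc-KO Nodal (27.2 FPKM) was behind Foxh1 (30.2 FPKM) and overlapped with Acvr2b (24.3 FPKM), and Lefty1 (6.79 FPKM) was last. The order between genes rests on the transcript lengths behind FPKM. The length implied by CPM over FPKM in WT-Taf was 627 bases for Smad7, 651 for Acvr2b, 647 for Lefty1 and 1039 for Lefty2, far below their longest annotated transcripts of 4278, 3175, 1620 and 2473 bases, so the places of these 4 are less certain than that of Nodal, at 1779 of 2095 bases. Acvr1b had the longest implied length, 2917 of 4418 bases, and moved furthest between the scales in WT-Taf, from place 7 by FPKM to place 4 by CPM.

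The profile over all 15 libraries was compared between genes by the root mean square difference of log2 CPM, centred on the mean of the own wild type, over 10291 genes tested in both experiments with a mean of at least 100 counts. The nearest gene to Lefty1 was Lefty2, at 0.363, against a median of 1.55 over all candidates. Their shared sequence leaves the split of reads uncertain, and its part in this nearness was not tested. Next came Nrp2 (0.457), Esrp1 (0.492), Tnfrsf19 (0.6) and Egr1 (0.653). Nrp2, a semaphorin co-receptor, had log2 fold changes of 2.80, 3.16 and -0.70 in Taf5l-KO, Taf6l-KO and cMyc-KO. Esrp1, a splicing regulator of epithelial cells, had 1.49, 1.78 and -0.70, and Tnfrsf19, a receptor of the TNF family, had 1.52, 1.42 and -0.76. Egr1, an immediate early transcription factor, had 1.84, 1.72 and 0.18, so it was near Lefty1 without a negative value in cMyc-KO. These profiles hold the same knockout and wild-type values by which Lefty1 was chosen, so nearness is a description and no test. The median distance depends on how far the gene itself moved: for Nodal, nearly level in the Taf knockouts, it was 0.613.

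Promoter sequence was available for 4 of the 9 genes (Nodal, Tdgf1, Acvr1b and Acvr2b), while Lefty1, Lefty2, Gdf3, Foxh1 and Smad7 had no entry. The Nodal window is shown because Nodal had the lowest log2 fold change of the 9 in cMyc-KO; it covers the 250 bases before the annotated start on the plus strand, chr10:61417722-61417971 in GRCm38.p6 (RefSeq).

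Nodal: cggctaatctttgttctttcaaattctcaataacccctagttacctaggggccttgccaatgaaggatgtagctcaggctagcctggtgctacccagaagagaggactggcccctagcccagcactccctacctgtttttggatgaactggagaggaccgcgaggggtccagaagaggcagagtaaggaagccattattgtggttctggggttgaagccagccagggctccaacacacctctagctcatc

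Both strands were searched for the FOXH1 words TGTGGATT and TGTGTATT, the SMAD word CAGACA and the E-box CACGTG, which MYC can bind; the FOXH1 words differ from each other at 1 position. They occur in 0.72%, 0.89%, 17.13% and 6.02% of 32851 windows of this length, and none was in the window of Nodal. Among the 4 genes the search found 1 match, a CACGTG in the window of Acvr1b, 54 bases before its start. A word is a description of the letters and not a bound site, and enhancers outside the windows were not searched.

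The rest of the pathway was read from a list of 49 other genes. In Taf5l-KO 35 had enough counts to be tested, of which 15 rose and 3 fell (51.4% called, against 33.2% of all genes), with a median log2 fold change of 0.12 against 0.00 (0.000539). In Taf6l-KO 14 of 35 rose and 6 fell (57.1% against 37.2%, median 0.14 against 0.02), and in cMyc-KO 9 of 36 rose and 9 fell (50% against 34.8%, median -0.02 against 0.00 (-0.00185)). The list was drawn up with earlier results of these data known, and no list test was run. The rises depended on the method: DESeq2 called 9 higher in Taf5l-KO, and limma-trend on log2(FPKM + 1) called 6 there and 4 in Taf6l-KO, and the falls in Taf6l-KO were 3 with library totals. In cMyc-KO 5 rose and 5 fell without WT-Myc replicate 2, 4 rose without WT-Myc replicate 3, 5 fell without WT-Myc replicate 1 or cMyc-KO replicate 1, and 3 fell in limma-trend.

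Among the other ligands, Inhbb, the beta-B subunit of activin and inhibin, fell in Taf6l-KO from 291 to 189 CPM (log2 fold change -0.62 ± 0.029, edgeR adjusted p = 1.72e-09) and in Taf5l-KO to 230 CPM (-0.34, adjusted p = 6.64e-07). It was lower in Taf6l-KO than in Taf5l-KO by -0.28 (edgeR adjusted p = 3.21e-05). In cMyc-KO Inhbb was at -0.21 (edgeR adjusted p = 0.0124), a call not kept in limma-trend on FPKM (0.074). None of the 6 ligands tested was called higher in Taf5l-KO or Taf6l-KO, where 17.4% and 19.1% of all genes were. Nothing is read from that count. Gdf11, at a mean of 60.9 counts, was at 0.37 in Taf5l-KO (edgeR adjusted p = 0.0524), with every library above every WT-Taf library. Gdf1, singled out after its values were seen and overlapping Cers1, so that its reads are uncertain, was at 0.487 CPM in cMyc-KO against 2.25 in WT-Myc (-2.21, edgeR adjusted p = 0.000229). The convertases Furin (0.36, edgeR adjusted p = 0.00016) and Pcsk6 (0.28, 0.000184), which cleave the Nodal precursor, both rose in Taf5l-KO. That of Pcsk6 was not kept in limma-trend on FPKM (0.0905), and neither gene passed in Taf6l-KO. Pcsk6 also rose in cMyc-KO (0.33, edgeR adjusted p = 0.00576), a call not kept in limma-trend on FPKM (0.0693).

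The other receptors and the SMAD transducers moved by small amounts, and several calls were near the threshold. The co-receptor gene Tgfbr3, at a mean of 64.3 counts in the Taf experiment and singled out after its values were seen, moved more. It rose in Taf5l-KO (0.56, edgeR adjusted p = 0.00996) and in Taf6l-KO (0.78, 0.000634), and was at -0.22 in cMyc-KO (0.262). Its call in Taf5l-KO was lost in DESeq2 (adjusted p = 0.0669) and in limma-trend on FPKM (0.167). Acvr2a, the second activin type II receptor, rose in Taf6l-KO (0.34, edgeR adjusted p = 0.000641) and in Taf5l-KO (0.21, 0.0237), and was at 0.23 in cMyc-KO (0.169). The call in Taf6l-KO was lost in limma-trend on FPKM (adjusted p = 0.0714), and that in Taf5l-KO in DESeq2 (0.126) and without Taf5l-KO replicate 2 or 3 or WT-Taf replicate 2 or 3 (edgeR adjusted p from 0.0506 to 0.123). Tgfbr1 was at -0.13, 0.03 and -0.21 (edgeR adjusted p = 0.0342, 0.645 and 0.241), and Tgfbr2 at -0.23, 0.08 and 0.02 (0.46, 0.807 and 0.961), in Taf5l-KO, Taf6l-KO and cMyc-KO. Acvr1c, which encodes ALK7, had too few counts to be tested. The call of Tgfbr1 in Taf5l-KO was lost in DESeq2 (adjusted p = 0.124) and without Taf5l-KO replicate 1 or 2 or WT-Taf replicate 1 or 2 (edgeR adjusted p from 0.0685 to 0.127).

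Smad2 was at 0.11, 0.11 and -0.01 in the 3 knockouts (edgeR adjusted p = 0.0323, 0.0338 and 0.94), Smad3 at 0.05, 0.20 and -0.21 (0.607, 0.0123 and 0.0201), and Smad4 at -0.03, -0.10 and 0.17 (0.52, 0.0337 and 0.0429). None of the calls among these SMADs held in DESeq2 in the Taf knockouts, with adjusted p = 0.205 and 0.233 for Smad2, 0.0943 for Smad3 and 0.0978 for Smad4, and each was also lost without some single libraries. Smad3 had the other sign in Taf6l-KO in limma-trend on log2(FPKM + 1) (-0.12). In cMyc-KO that of Smad3 was also lost in DESeq2 (adjusted p = 0.0936) and that of Smad4 without any single WT-Myc library (edgeR adjusted p from 0.0965 to 0.141). Zfyve9, the SARA protein that holds SMADs at the receptor, rose in cMyc-KO from 25.9 to 44.2 CPM (0.77 ± 0.070, edgeR adjusted p = 0.000166). It was also called higher in Taf5l-KO (0.17, edgeR adjusted p = 0.0114) and Taf6l-KO (0.14, 0.031), but not in DESeq2 (adjusted p = 0.0636 and 0.164).

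Of the 11 other intracellular inhibitors, 6 rose and 1 fell in Taf5l-KO, 6 rose and 2 fell in Taf6l-KO, and 2 rose and 5 fell in cMyc-KO. Over all genes the shares that rose and fell were 17.4% and 15.9%, 19.1% and 18.2%, and 15.2% and 19.5%. In cMyc-KO 3 of these 7 calls were near the threshold: that of Drap1 was lost in DESeq2 (adjusted p = 0.119) and without any single library, that of Ski without cMyc-KO replicate 1 or WT-Myc replicate 1, and that of Tgif1 without any single WT-Myc library. Calls in the Taf knockouts also depended on the setting. In Taf5l-KO those of Smurf1 and Ppm1a were lost in DESeq2 (adjusted p = 0.0907 and 0.098). In Taf6l-KO that of Smurf1 was lost in DESeq2 (adjusted p = 0.169), and the fall of Ski with library totals (edgeR adjusted p = 0.164). Tgif1, a repressor that binds SMADs, fell from 167 to 117 CPM in Taf5l-KO (-0.52 ± 0.032, edgeR adjusted p = 3.42e-08) and to 110 CPM in Taf6l-KO (-0.60, 5.81e-09). Its relative Tgif2 rose in Taf5l-KO from 38.7 to 57.2 CPM (0.56 ± 0.046, edgeR adjusted p = 5.24e-07) and in Taf6l-KO to 49.6 CPM (0.36, 3.28e-05). The call of Tgif2 in Taf6l-KO was not kept in limma-trend on FPKM (adjusted p = 0.0859). Members of this small family thus moved in opposite directions in the Taf knockouts. Skil, which encodes the SMAD repressor SnoN, fell in cMyc-KO from 75.9 to 43.7 CPM (-0.79 ± 0.106, edgeR adjusted p = 0.00106). It was called higher in Taf5l-KO (0.16, edgeR adjusted p = 0.0128) and Taf6l-KO (0.16, 0.0121), but not in limma-trend on FPKM (0.144 and 0.613). Fst, a secreted activin antagonist, rose in cMyc-KO from 5.56 to 11.8 CPM (1.08 ± 0.147, edgeR adjusted p = 0.00117). In Taf6l-KO Fst fell (-0.36, edgeR adjusted p = 0.0437), a call lost in DESeq2 (adjusted p = 0.118).

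Target genes other than the Leftys were mostly silent: 7 of 12 had too few counts to be tested beside WT-Taf, and 6 beside WT-Myc. Of the 5 tested in the Taf experiment, 3 rose in Taf5l-KO, and in Taf6l-KO 3 rose and 1 fell. Over all genes tested 17.4% rose in Taf5l-KO, and 19.1% rose and 18.2% fell in Taf6l-KO. Otx2, a transcription factor of the epiblast and forebrain, rose from 7.29 to 15.7 CPM in Taf5l-KO (1.10 ± 0.074, edgeR adjusted p = 7.37e-08) and to 14.1 CPM in Taf6l-KO (0.95, 2.01e-07). Ctgf, a matricellular protein gene that TGF-beta induces, was higher in Taf5l-KO (0.76 ± 0.100, edgeR adjusted p = 4.95e-05) and in Taf6l-KO (0.86, 9.48e-06), calls that limma-trend on FPKM did not keep (adjusted p = 0.227 and 0.118). The mesendoderm genes as a group stayed low, with 8 markers that summed to 5.82 to 6.41 CPM in WT-Taf, 5.45 to 5.70 CPM in Taf5l-KO and 3.96 to 5.19 CPM in Taf6l-KO.

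**Figure D4:**
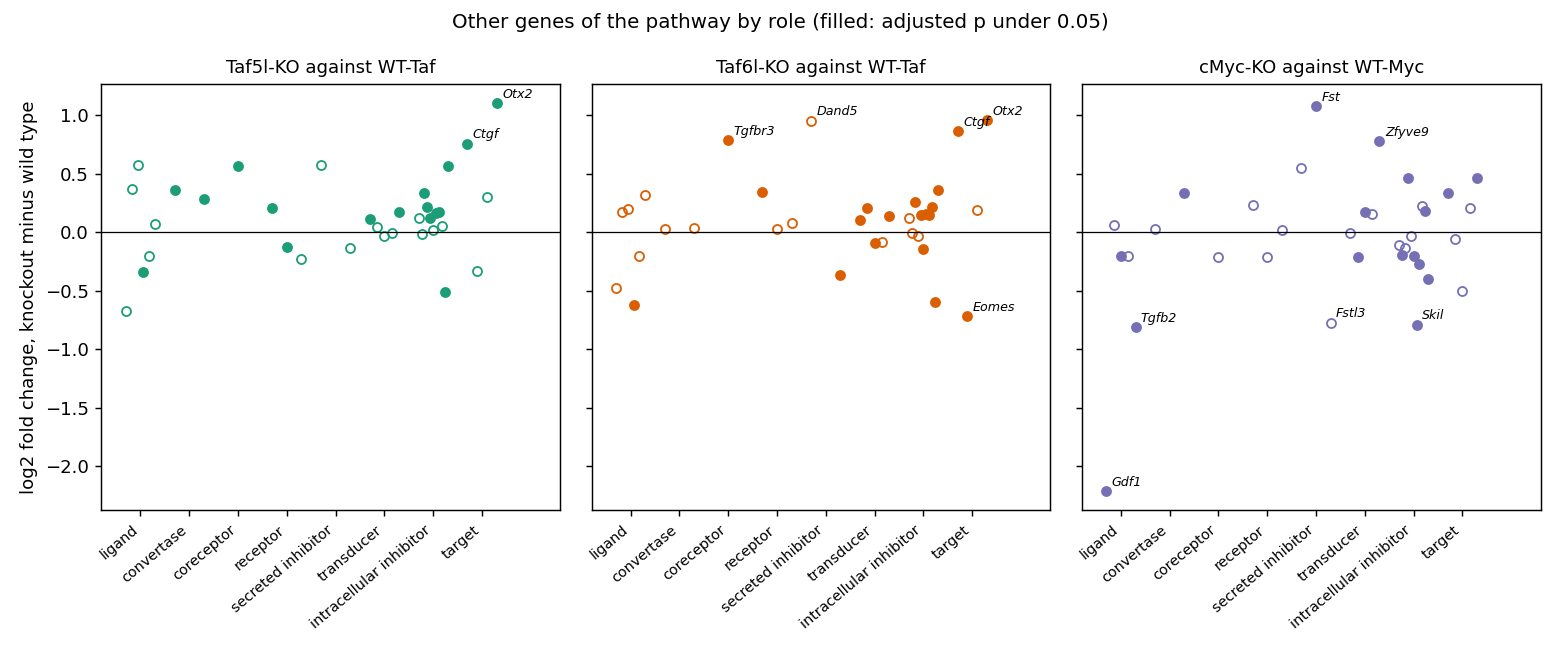
Log2 fold change (vertical axis) of the other pathway genes shown, by role (horizontal axis), one panel per knockout against its own wild type; filled points passed an adjusted p of 0.05 in edgeR. Otx2 (1.10 and 0.95) and Ctgf (0.76 and 0.86) lie among the highest points of the Taf knockouts, and Fst (1.08) and Skil (-0.79) lie far from 0 in cMyc-KO.

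Markers of cell state also differed between these groups. The 8 pluripotency markers summed to 4889 to 4937 CPM in WT-Taf, 4200 to 4313 CPM in Taf5l-KO and 4156 to 4258 CPM in Taf6l-KO. In Taf5l-KO 5 of them were lower and 1 higher, where 15.9% of all genes tested were lower and 17.4% higher. In Taf6l-KO 7 were lower and none higher, where 18.2% of all genes tested were lower and 19.1% higher. The same markers summed to 5866 to 6082 CPM in WT-Myc and 6431 to 6821 CPM in cMyc-KO. In cMyc-KO 4 were higher and none lower, where 15.2% of all genes tested were higher and 19.5% lower. The 4 primed epiblast markers, Otx2 among them, summed to 143 to 149 CPM in WT-Taf, 183 to 186 CPM in Taf5l-KO and 169 to 171 CPM in Taf6l-KO, and to 176 to 184 CPM in WT-Myc against 135 to 149 CPM in cMyc-KO. Most of this sum was Dnmt3b, a DNA methyltransferase, at 135 CPM in WT-Taf, so the sum says little of the other 3. In cMyc-KO 3 of the 4 fell, Dnmt3b among them (-0.40, edgeR adjusted p = 0.00156), but Otx2 rose (0.46, 0.0229). That rise did not pass without WT-Myc replicate 2 (edgeR adjusted p = 0.0916) or replicate 3 (0.0826), or with the replicate block (0.0656). The log2 fold change of Otx2 was thus positive in all 3 knockouts, but its call in cMyc-KO depended on the setting. The part of cell state in the Lefty values was not tested.

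The other marker lists were low or moved as follows. Trophectoderm markers, 5 in number, summed to 47.4 to 49.8, 61.1 to 63.4 and 64.2 to 69.1 CPM in WT-Taf, Taf5l-KO and Taf6l-KO, and to 88.3 to 92.5 against 67.8 to 71.8 CPM in WT-Myc and cMyc-KO. Neuroectoderm markers (3 matched of 4) summed to 6.04 to 8.005, 9.91 to 13.9 and 12.03 to 13.8 CPM, and to 19.1 to 19.7 against 14.4 to 16.8 CPM. Within the trophectoderm list the genes did not move together: Tcfap2c fell in cMyc-KO (-0.85, edgeR adjusted p = 2.67e-05) while Krt8 rose (0.89, 0.000321), and in Taf6l-KO Eomes fell (-0.72, 0.00347) while Krt8 and Tcfap2c rose. Of the neuroectoderm genes, Pax6 and Nes rose in both Taf knockouts, and Pax6 fell in cMyc-KO (-0.46, edgeR adjusted p = 0.0296).

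Primitive endoderm markers (5) summed to 7.31 to 8.63 CPM in WT-Taf, 6.47 to 6.78 CPM in Taf5l-KO, 7.16 to 7.95 CPM in Taf6l-KO, 7.79 to 9.31 CPM in WT-Myc and 9.27 to 10.6 CPM in cMyc-KO. Gata6 (-2.20 and -2.21) and Sox7 (-0.96 and -1.23) fell in both Taf knockouts, where Gata4 rose (0.78 and 0.90). Gata6 had a mean of only 6.67 counts, at 0.772 CPM in WT-Taf, 0.162 in Taf5l-KO and 0.165 in Taf6l-KO, so its fold is uncertain. Fibroblast markers (7) summed to 7.61 to 9.004 CPM in WT-Taf, 4.27 to 5.50 CPM in Taf5l-KO and 5.09 to 6.15 CPM in Taf6l-KO, and to 4.90 to 6.23 against 5.40 to 6.86 CPM in WT-Myc and cMyc-KO. The lower sums in the Taf knockouts lay mainly in Thy1, at 6.96 CPM in WT-Taf (-0.95 and -0.88), and the matrix genes Lum and Dcn were at 0 in all groups. The part of these cell types in the Lefty values was not tested.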

How the data were processed

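Whole-number counts for each gene, estimated from reads, were deposited by the authors together with FPKM and normalized counts, treated here as a signal. Salmon 0.8.2, DESeq2 1.14.1 and build mm9 appear in the submitters' processing notes, which give none of them a role. Counts were the main measure, the deposited FPKM served to compare levels between genes, and the deposited normalized signal was only inspected. The 15 columns of the TPM table could not all be matched to the labels and were not used. Libraries were ribosomal RNA-depleted and strand-specific, per the labels' protocols.

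Samples were grouped by title. Counts were fitted in R 4.3.3 with edgeR 4.0.16 (TMM, filterByExpr, glmQLFit, glmQLFTest) over all genes, with 1 fit for the 9 libraries that include Taf5l-KO and Taf6l-KO and another for the 6 of the Myc experiment; p-values were adjusted by Benjamini-Hochberg and called under 0.05. An SE is the log2 fold change over the square root of F. The biological coefficient of variation was 4.23% and 10.2%. Symbols shared by several rows (3386 repeats) name the most abundant row. The 9 genes, the pathway and marker lists and the rules were chosen with earlier results of these data known. Named from the pathway list were the receptors and SMADs, and genes called with an absolute log2 fold change of at least 0.5 and a mean of at least 100 counts. Gdf1, Gdf11, Furin, Pcsk6, Tgfbr3 and the single markers were added after their values were seen. Profile neighbours are the 5 with the smallest difference, with 0.1 CPM added. Chromosomes and transcripts come from GENCODE M21, in which 87.4% of IDs were found. The settings varied were the scaling (RLE or library totals), the filter (none), the tool (DESeq2 1.42.0), the replicate block, the libraries fitted together (all 15, or the groups compared) and each library left out; limma-trend (limma 3.58.1) on log2(FPKM + 1) with a mean FPKM of at least 0.5 was added after seeing the data. A result for 1 gene of the pathway list, which stays in the counts, is not reported here. The procedure was tested on simulated counts. Figures were drawn with matplotlib 3.10.9.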

Additional observations from a re-analysis of the deposited data

Results flagged for a closer look

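The 96 genes examined were the 9, the pathway list, the markers, the targeted genes and the nearest profiles, some with too few counts to be tested. Over all 15743 genes tested, 18.7% were called between Taf6l-KO and Taf5l-KO, so the number called here is not read as a result. Of the 96, 18 differed between Taf6l-KO and Taf5l-KO in edgeR's quasi-likelihood test, given here as log2 differences. Among the 9 these were Lefty2 (0.66) and Smad7 (-0.22). In the rest of the pathway they were Inhbb (-0.28), Furin (-0.33), Pcsk6 (-0.24), Tgfbr1 (0.16), Ski (-0.16), Tgif2 (-0.20), Smurf2 (0.16) and Pmepa1 (-0.25). The others were Pou5f1 (-0.15), Nanog (0.15), Zfp42 (0.17), Dnmt3b (-0.11), Nrp2 (0.35), Esrp1 (0.29) and the targeted genes Taf5l (1.08) and Taf6l (-1.65). The difference of Tgif2 did not pass with library totals (adjusted p = 0.122) or in limma-trend (0.186).

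In cMyc-KO 19 of the genes examined moved away from WT-Myc in every library in the direction opposite to that of every library of both Taf knockouts against WT-Taf. From the pathway they were Lefty1 (-0.98), Lefty2 (-0.48), Skil (-0.79), Tgif2 (-0.40), Smurf1 (-0.27), Nedd4l (-0.14) and Tgif1 (0.18). Of the markers they were Nanog (0.13), Zfp42 (0.31), Esrrb (0.16), Klf4 (0.29), Dppa5a (0.50), Dnmt3b (-0.40), Tcfap2c (-0.85), Pax6 (-0.46) and Nes (-0.24), and of the nearest profiles Nrp2 (-0.70), Esrp1 (-0.70) and Tnfrsf19 (-0.76). The difference between the experiments was not tested for any of them, and the wild types started from different levels. The share of all genes that moved in this way was not worked out, so nothing is read from their number. The rise of Tgif1 in cMyc-KO was lost without any single WT-Myc library (edgeR adjusted p from 0.0575 to 0.082). Separate libraries do not make a call: in cMyc-KO neither Nedd4l nor Nanog passed in the main fit. Over 13 other settings Nedd4l passed in 0 and Nanog in 3.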

How the results depend on the processing

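Genes called higher and lower numbered 2735 and 2499 in Taf5l-KO, 3003 and 2858 in Taf6l-KO, 2217 and 2847 in cMyc-KO, and 1346 and 1592 for Taf6l-KO against Taf5l-KO. With limma-trend on log2(FPKM + 1) they were 1391 and 1242, 1375 and 1743, 1636 lower in cMyc-KO, and 364 and 562. With library totals 1837 were lower in Taf6l-KO, and 3045 were higher and 618 lower in the direct comparison, where the share of calls that were higher went from 45.8% to 83.1%; in Taf6l-KO it went from 51.2% to 69%. All 15 libraries in a single fit gave 3518 higher in cMyc-KO and 803 and 844 in the direct comparison, and DESeq2 gave 780 higher there. Leaving out single libraries gave 1364 to 2876 higher in cMyc-KO, the lowest without WT-Myc replicate 2. Same-numbered libraries did not deviate together (correlations from -0.452 to 0.0685), so the replicate number does not pair them; with the replicate block 1216 genes were higher in cMyc-KO, and of the other pathway genes 5 rose and 4 fell there. Smad3 turned from 0.20 to -0.12 in Taf6l-KO in limma-trend on FPKM; the cause was not tested.

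Over the alternatives, the log2 fold change of Lefty1 lay between 2.08 and 2.49 in Taf5l-KO, 2.05 and 2.53 in Taf6l-KO and -1.10 and -0.76 in cMyc-KO, and that of Lefty2 between 1.75 and 2.12, 2.43 and 2.78, and -0.53 and -0.38. Nodal in cMyc-KO ran from -1.31 to -1.22, and the direct difference of Lefty2 from 0.55 to 0.81. With 28 to 89 reads per gene and library in WT-Taf, counting error limits the Lefty folds.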
